A study of Mus musculus with 4 samples.

Results

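The cytosolic ribosome is built from a small and a large subunit, and its protein part is encoded by genes named Rps (small subunit, 40S) and Rpl or Rplp (large subunit, 60S). The genes described here are all those of the deposited feature table whose symbol is an Rps or Rpl number, with an optional letter for a variant, Rplp0 to Rplp2, or Rpsa. The rule uses names only and found 83 of 31053 genes, of which 32 encode 40S and 51 encode 60S proteins, 6 of them being paralogues of another member. They lie on 19 chromosomes, and their median transcript length was 774 bases. Most ribosomal protein transcripts begin with a short pyrimidine stretch (the 5′ terminal oligopyrimidine, or 5′ TOP) through which their translation is adjusted jointly. The transcripts are made in the nucleus, exported and translated in the cytoplasm, and the proteins return to the nucleolus to be built into subunits. A nucleus preparation therefore reads the nuclear transcripts together with whatever cytoplasmic RNA stays attached or is taken up in the droplet.

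Single-nucleus RNA-seq was carried out on brains of male C57BL/6J mice aged 8 weeks that had received adeno-associated virus of serotype 9 into the cisterna magna at 4 weeks of age. AAV-VEGF-C carried full-length mouse VEGF-C, and AAV-CTRL carried a soluble part of mouse VEGF receptor 3 fused to an immunoglobulin tail that does not bind VEGF-C, so that both vectors encode a secreted protein. Each virus group had tissue labelled cortex and tissue labelled striatum, pooled from 5 brains before nuclei were isolated, and each of the 4 groups is 1 library. The mice behind both region labels of a virus group are the same. Unless stated otherwise, values are listed with the cortex label first and the striatum label second, and within each label with AAV-CTRL before AAV-VEGF-C. With 1 library per group no test of a difference between groups is possible, and every interval given is a 95% interval for counting error only.

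The libraries kept 16223, 18915, 21434 and 16438 nuclei after doublets were left out, 73010 of 78728 in all, with medians of 2492, 2650, 2127 and 2540 unique molecular identifiers (UMIs, 1 per captured transcript) per nucleus. Between 76 and 118 barcodes were shared by each pair of libraries, at most 0.658% of the smaller one. The region labels stood against their defining genes. Ppp1r1b, a phosphatase inhibitor of striatal projection neurons, gave 63.3, 75.8, 18.8 and 18.5 counts per 1000000 UMIs (CPM), so that it was higher in the libraries labelled cortex. Slc17a7, the vesicular glutamate transporter of cortical neurons, gave 420, 462, 59.8 and 42.7 CPM, and Tcf7l2, which marks thalamic neurons, 43.7, 40.7, 305 and 339 CPM. The libraries labelled cortex thus held striatal as well as cortical transcripts, and those labelled striatum had lower levels of both. The region labels are kept below as names only. Vegfc, the delivered gene, gave 12.3, 11.8, 13.0 and 11.9 CPM and did not separate the virus labels. A vector transcript need not be counted as the gene, so this is no measure of delivery. Flt4, which encodes VEGF receptor 3, gave 3.82, 2.82, 4.23 and 3.70 CPM. For AAV-VEGF-C over AAV-CTRL its log2 ratio was -0.44 (-0.72 to -0.16) in cortex and -0.19 (-0.45 to 0.06) in striatum. By ELISA, the paper reports more VEGF-C protein in cerebrospinal fluid and brain extracts after AAV-VEGF-C.

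The start of the transcript is shown for 8 members because the pyrimidine stretch is the feature by which these genes are known. RefSeq promoter sequences of the GRCm38.p6 build were matched for 63 of the 83 members. Each line gives 12 bases before and 12 bases from the annotated start, read 5′ to 3′ on the gene's strand, and the capitals mark the run of C and T that opens at the start. 
Rps6, chr4:86857356-86857379, minus strand: cggaagtcgggcCTCTTTTTCgtg
Rps21, chr2:180257367-180257390, plus strand: cgaggacccgccCTCCTgcccaat
Rps27, chr3:90213637-90213660, minus strand: tccgctttcgctCCTTTCCggcgg
Rps10, chr17:27635233-27635256, minus strand: ccgcgcacgcccCTTCCTTTCCag
Rplp2, chr7:141447639-141447662, plus strand: gtcagcgtcttcCTTTCgccgccg
Rpl35, chr2:39005120-39005143, minus strand: ccccgccctttcCTCTTTCTCTCg
Rpl35a, chr16:33056470-33056493, plus strand: gggcttgccttcCTCTTTCCgcca
Rpl38, chr11:114668568-114668591, plus strand: ggaagcctcgttCTTTCCCCgttc
A C at the annotated start followed by 4 further bases that are each C or T was found on the gene's strand in 13 of the 63 members, or 20.6%, of which 6 of 24 were 40S and 7 of 39 were 60S genes. Over all 27025 genes of the promoter table the share was 3.01%. Allowing the run to begin within 5 bases of the annotated start gave 29 members, or 46.0%, against 21.2% of all genes. The same search found the run at the start in 2 of 10 other translation genes known for a 5′ TOP, 0 of 69 mitochondrial ribosomal proteins and 0 of 26 ribosome biogenesis genes. No match says only that the letters do not stand at the annotated base, which can lie a few bases from the start that the cell uses.

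The 83 genes together received 3361645 UMIs, of which 625341, 921586, 844521 and 970197 were in the 4 libraries. At least 1 UMI was found for 82 of them, and 81 reached 100. Rpl10l, an intronless copy of Rpl10 known from testis, had 0 UMIs. Rpl39l, the testis-enriched paralogue of Rpl39, had 7, 10, 11 and 14 UMIs. The 5 members with the most UMIs held 14.7% of the ribosomal UMIs and the first 10 held 25.3%, so that no single protein gene carried the sum.

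Rps29, a zinc-binding protein of the small subunit (chromosome 12, 69157722 to 69159186, minus strand), had the most UMIs, with 419, 624, 412 and 608 CPM. Per kilobase of transcript it was also first, at a mean of 1322 CPM. As 3′ UMIs count captured transcripts and not their length, this division raises short genes and is not a correction of abundance. Rpl41, the smallest ribosomal protein (chromosome 10, 128548114 to 128549305, minus strand), followed with 354, 490, 282 and 406 CPM. For both genes the libraries labelled AAV-VEGF-C were the highest, and for Rpl41 the library labelled striatum AAV-CTRL was the lowest. Rplp1, a protein of the stalk that recruits elongation factors, gave 327, 385, 339 and 408 CPM. Rpl38, a 60S protein known for a mouse skeletal mutant, gave 254, 359, 265 and 381 CPM and was second per kilobase at 856 CPM. The small subunit held 41.9%, 42.0%, 42.5% and 42.4% of ribosomal UMIs, so that its part differed little between libraries.

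Ribosomal protein transcripts took 1.08% (1.073 to 1.079) of all UMIs in the library labelled cortex AAV-CTRL. The share was 1.32% (1.315 to 1.32) with AAV-VEGF-C under the same region label. Under the striatum label it was 1.27% (1.269 to 1.274) with AAV-CTRL and 1.57% (1.565 to 1.572) with AAV-VEGF-C. The median nucleus gave 1.23%, 1.5%, 1.49% and 1.83%, in the same order, and 1 nucleus of all had no ribosomal UMI. In nuclei thinned to 1000 UMIs, a mean of 12.1, 14.3, 13.6 and 16.7 of the 83 genes had a UMI.

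Nuclei were grouped into broad classes from marker genes, with the ribosomal protein genes and the mitochondrially encoded genes left out of the clustering, so that the levels below did not form the classes. The names carry "-like" because the authors' annotation was not used. In 18 classes that had at least 30 nuclei in every library, endothelial-like nuclei had the highest ribosomal share in all 4 libraries. Their share was 3.64% (3.608 to 3.681), 4.20% (4.157 to 4.234), 3.64% (3.611 to 3.672) and 4.51% (4.471 to 4.544), from 626, 676, 934 and 670 nuclei. Pericyte-like nuclei, the contractile cells on the capillary wall, had 2.44%, 3.15%, 2.99% and 3.29%. Macrophage-like nuclei had 2.43%, 3.11%, 2.61% and 3.24%, and microglia-like nuclei had 1.95%, 2.43%, 2.04% and 2.43%. Red blood cell-like droplets, from 32 to 114 per library, had 2.38%, 2.98%, 3.10% and 3.36%. Vascular, immune and blood classes therefore headed the order of the 18 in every library. Nuclei of 7 clusters that met no class's markers, 283, 304, 671 and 324 per library, were left out of the 18. Their summed share was 4.69%, 5.48%, 3.15% and 4.81%, above endothelial-like nuclei in 3 of the 4 libraries. This sum mixed unlike clusters. The largest, of 1094 nuclei, had 5.01%, 5.57%, 4.16% and 5.40%, above endothelial-like nuclei in every library. Unnamed clusters of 177, 111, 110 and 40 nuclei had 1.70%, 1.24%, 1.59% and 1.14% over all libraries.

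Glia lay in between. Oligodendrocyte-like nuclei, the myelin-forming cells, had 1.73%, 2.24%, 1.78% and 2.18%, and astrocyte-like nuclei had 1.53%, 1.89%, 1.55% and 1.91%. Oligodendrocyte precursor-like nuclei had 1.31%, 1.66%, 1.33% and 1.69%. Excitatory, inhibitory, striatal projection and unresolved neurons were the lowest 4 classes in every library. Excitatory neuron-like nuclei had 0.80%, 1.02%, 0.75% and 0.935%, and nuclei that met only general neuronal markers, called unresolved neurons, had 0.686%, 0.88%, 0.863% and 1.09%. Striatal projection neuron-like nuclei had 0.771%, 0.958%, 0.827% and 1.03%. The highest class exceeded the lowest 5.31, 4.76, 4.86 and 4.82-fold.

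**Figure D1:**
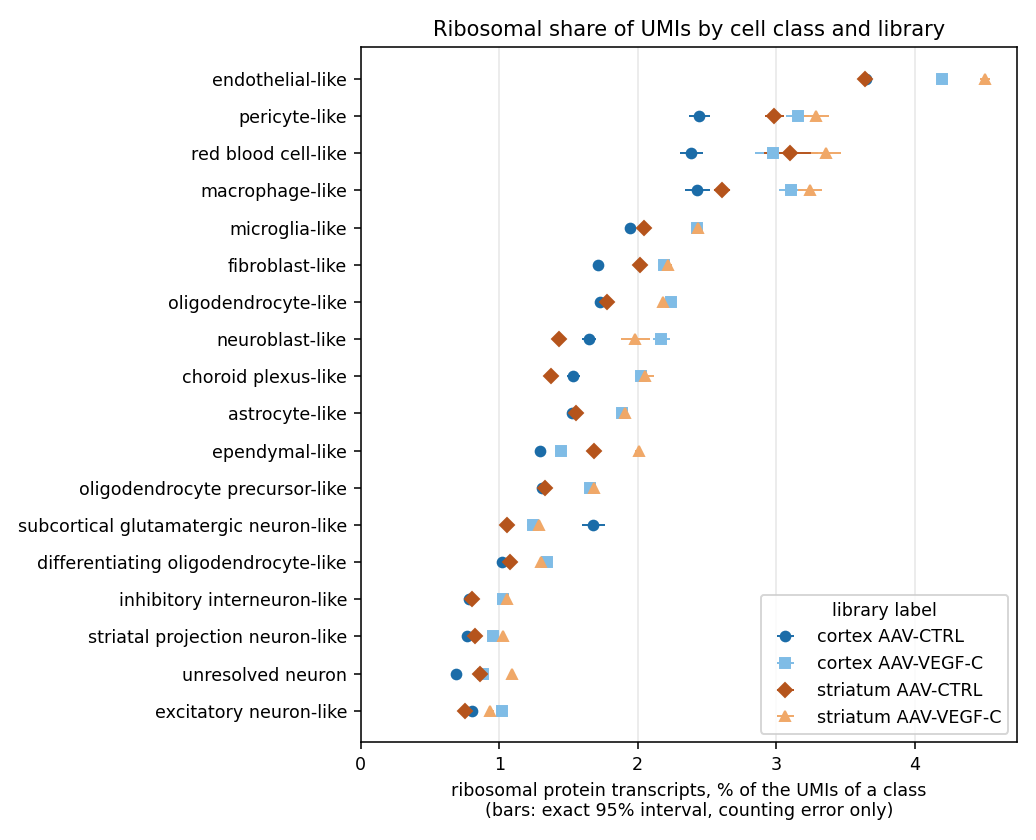
Share of all UMIs that fell on the 83 ribosomal protein genes (percent, horizontal axis) for each broad cell class (vertical axis) and each of the 4 libraries (points, with 95% counting intervals). Endothelial-like nuclei lie at the top in every library, between 3.64% and 4.51%, and excitatory, inhibitory, striatal projection and unresolved neurons are the lowest 4. Unnamed nuclei are left out.

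The order of shares was not an order of ribosomal UMIs alone, because classes differed in total UMIs. Endothelial-like nuclei had a mean of 59.1, 65.6, 56.7 and 83.1 ribosomal UMIs per nucleus, and excitatory neuron-like nuclei had 36.2, 46.6, 40.9 and 57.3. Across classes the mean count per nucleus spanned 2.78, 2.99, 1.93 and 2.06-fold, less than the shares did. Over the 18 classes, which share a library and its depth, the ribosomal share had a Spearman correlation of -0.93, -0.92, -0.89 and -0.83 with the median UMI count. Within a class, nuclei were split into 4 bins of equal size by UMI count, and the shallowest bin had a higher ribosomal share than the deepest in 65 of 72 combinations of class and library, with a median ratio of 1.61. The exceptions were endothelial-like nuclei in all 4 libraries and pericyte-like nuclei in 3. Thinning nuclei to equal depth left endothelial-like nuclei with a mean of 26.1, 29.0, 26.8 and 31.4 detected members, against 7.69, 9.44, 8.93 and 10.9 in unresolved neurons.

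Mitochondrially encoded transcripts, which are made outside the nucleus, moved with the ribosomal share. They took 0.725%, 0.969%, 0.919% and 1.13% of UMIs, and their share had a Spearman correlation of 0.66, 0.70, 0.81 and 0.74 with the ribosomal share over the 18 classes. The ratio of ribosomal to mitochondrially encoded UMIs was not constant. It was 2.25 to 2.51 in microglia-like nuclei over the 4 libraries, 0.60 to 0.78 in choroid plexus-like nuclei and 0.30 to 0.85 in ependymal-like nuclei, against 1.36 to 1.48 in all nuclei. The part of cytoplasmic or free RNA in the ribosomal share was not tested.

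The same order held gene by gene. In the comparison of endothelial-like nuclei with all other nuclei, all 80 members past the count minimum of 100 UMIs were higher by at least 0.58 on the log2 scale of CPM in each of the 4 libraries, where 32.4%, 31.3%, 28.2% and 27.6% of all genes tested were. The median member was higher by 1.80, 1.70, 1.58 and 1.59. In microglia-like nuclei 78, 80, 60 and 51 of the 80 were higher by that fold, against 32.5%, 31.8%, 26.3% and 24.6% of all genes. In unresolved neurons 71, 63, 78 and 77 of the 80 were lower by that fold, against 22.9%, 21.2%, 27.4% and 24.2% of all genes.

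Nuclei of 2 neuron clusters had low UMI counts and high ribosomal shares. A cluster of 4012 nuclei named subcortical glutamatergic neuron-like had a median of 1264 UMIs and a ribosomal share of 2.89%, where the other 5 clusters of its class had 0.646% to 1.2%. Its ribosomal UMIs per nucleus, 40.2, were below the 42.6 to 52.6 of those clusters. A cluster of 3789 excitatory neuron-like nuclei had a median of 1449 UMIs and 2.49%, where the other 8 clusters of its class had 0.702% to 1.04%. Mitochondrially encoded transcripts took 1.75% and 1.47% of their UMIs.

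Within each region label the question of the study was how AAV-VEGF-C differed from AAV-CTRL. The ribosomal share was higher in the library labelled AAV-VEGF-C by 0.29 (0.287 to 0.297) on the log2 scale for cortex and by 0.30 (0.299 to 0.307) for striatum. The virus groups share no mice, but both region labels come from the same pools, so that the pair of ratios counts as 1 comparison of pools. Of 81 members past the count minimum, 78 were higher in cortex, where 48.3% of all genes tested were, and 80 were higher in striatum, where 50.6% were. By the fold of 0.58, 1 member was higher in cortex (0.423% of all genes) and 2 in striatum (1.03%), and 0 were lower in either (0.717% and 1.84%). The difference was thus spread over nearly all members at a small size, with a median of 0.24 and 0.26 where all genes had -0.01 and 0.00.

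The share was higher with the AAV-VEGF-C label in 17 of 18 classes in cortex and in 18 of 18 in striatum, with medians over classes of 0.35 and 0.30. Endothelial-like nuclei differed by 0.20 (0.18 to 0.22) and 0.31 (0.29 to 0.33), and microglia-like nuclei by 0.32 and 0.25. Astrocyte-like nuclei differed by 0.31 and 0.30. Choroid plexus-like nuclei, which secrete cerebrospinal fluid, differed by 0.40 (0.34 to 0.45) and 0.58 (0.52 to 0.64), from 91, 129, 108 and 66 nuclei. This was the highest value in striatum, while in cortex neuroblast-like nuclei at 0.40 and inhibitory interneuron-like nuclei at 0.39 lay within its interval. Subcortical glutamatergic neuron-like nuclei of cortex were the exception at -0.43 (-0.52 to -0.34), from 54 and 66 nuclei, of which the low-count cluster above held 88.9% and 57.6%. As the mean over these nuclei, rather than over their summed UMIs, the value was 0.10, so that its direction turned. It stayed below 0 in thinned nuclei at -0.15, as the median over nuclei at -0.13 and with median-of-ratios size factors at -0.57. Within the low-count cluster alone the share went from 1.97% to 2.82% in cortex, a difference of 0.51 (0.41 to 0.62) from 48 and 38 nuclei, and from 2.55% to 3.24% in striatum, a difference of 0.34 (0.33 to 0.36). Over single members and classes, 1028 of 1092 pairs were higher in cortex, where 51.3% of such pairs over all genes were, and 1082 of 1187 in striatum, where 49.7% were.

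Class by class, the counts of members past the minimum differed. In endothelial-like nuclei 71 of 80 members were higher in cortex (49.1% of all genes) and 75 of 80 in striatum (45.3%). In microglia-like nuclei 73 of 76 were higher in cortex (48.1%) and 64 of 75 in striatum (50.3%). In astrocyte-like nuclei the counts were 79 of 80 (48.4%) and 78 of 80 (48.9%). In oligodendrocyte-like nuclei they were 79 of 80 (49%) and 80 of 80 (48.5%), and in unresolved neurons 78 of 80 (54.6%) and 80 of 80 (58%). In choroid plexus-like nuclei 54 of 58 were higher in cortex (45.9%) and 45 of 45 in striatum (38.8%), with a median of 0.34 and 0.61. Among these 6 classes the smallest shares of members were higher in microglia-like nuclei of striatum and endothelial-like nuclei of cortex. Over all 18 classes and both region labels, fewer than 80% of the members past the minimum were higher in 5 of 36 combinations. These were 58 of 80 in fibroblast-like nuclei of striatum (37.7% of all genes), 42 of 58 in pericyte-like nuclei of striatum (49.6%) and 45 of 61 in ependymal-like nuclei of cortex (51.7%). The other two were 4 of 10 in red blood cell-like nuclei of striatum (59.2%) and 1 of 5 in subcortical glutamatergic neuron-like nuclei of cortex (56.9%).

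**Figure D2:**
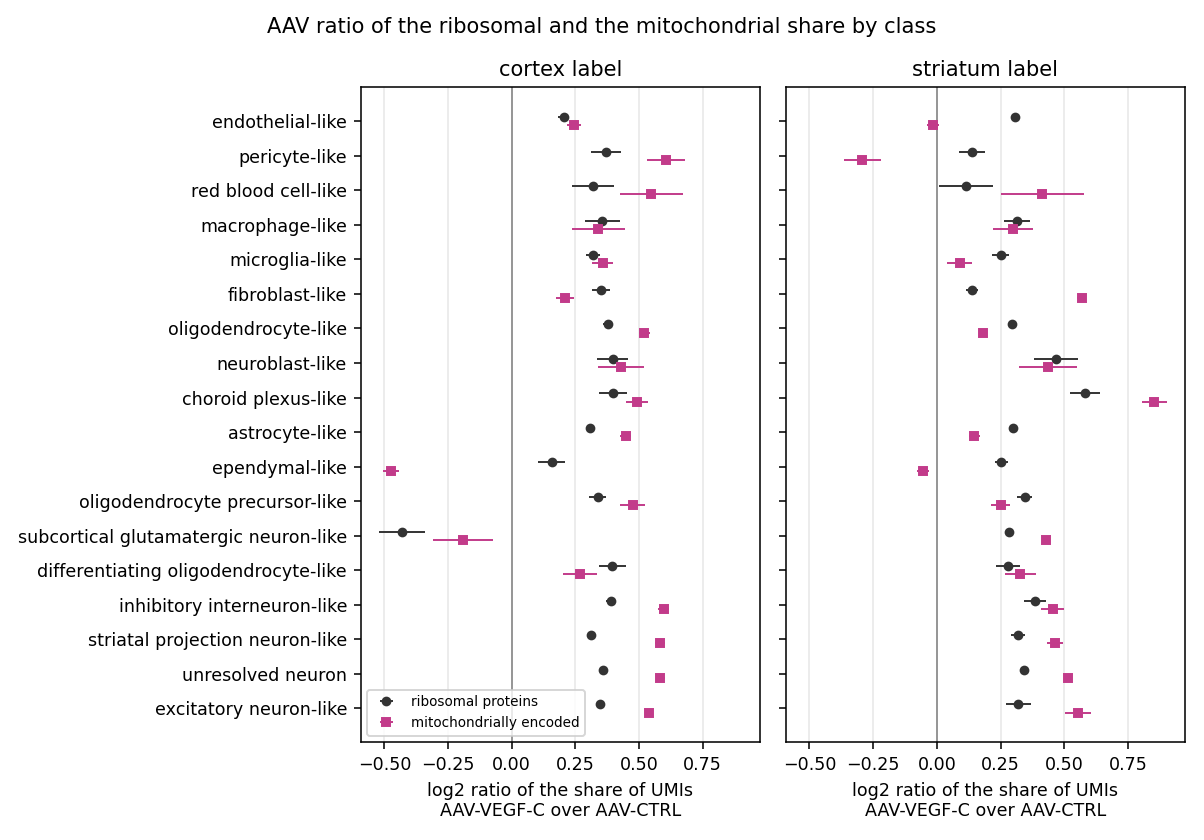
Log2 ratio of the ribosomal share and of the mitochondrially encoded share, AAV-VEGF-C over AAV-CTRL (horizontal axis). Values are given for each broad class (vertical axis) in the libraries labelled cortex and striatum, with 95% counting intervals. All ribosomal values lie above 0 except subcortical glutamatergic neuron-like nuclei of cortex, at -0.43 from summed UMIs. Mitochondrially encoded values lie on either side of 0.

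Over whole libraries other genes moved with the ribosomal ones. Mitochondrially encoded transcripts were higher with the AAV-VEGF-C label by 0.42 in cortex and 0.30 in striatum, with 13 of 13 genes higher in both. By class their share was lower in ependymal- and subcortical glutamatergic neuron-like nuclei of cortex. In striatum it was lower in endothelial-, ependymal- and pericyte-like nuclei. In the other classes of the 18 it was higher. Nuclear genes of the respiratory chain were higher by 0.23 and 0.25, with 74 and 71 of 78 genes higher. Among ribosomal genes outside the symbol rule, Fau, which encodes a ubiquitin-like protein fused to a 40S protein, gave 171, 217, 195 and 243 CPM. Rack1, a scaffold on the 40S head, gave 59.4, 71.4, 74.5 and 83.1 CPM. Both were higher with the AAV-VEGF-C label under either region label. Mitochondrial ribosomal proteins were higher by 0.13 and 0.15. Other translation genes with a 5′ TOP were higher by 0.09 and 0.11 in sum, with 13 and 10 of 16 genes higher and 3 and 6 lower. Among the higher ones were the elongation factor Eef1a1, by 0.14 and 0.22, and Tpt1, by 0.08 and 0.15. Ribosome biogenesis genes, whose products assemble the subunits in the nucleolus, were higher by 0.05 and 0.07 in sum, with 19 and 25 of 33 genes higher. Of all genes tested, 48.3% were higher in cortex and 50.6% in striatum, against which the counts of each list are to be read. The part of the mitochondrially encoded transcripts' difference in the ribosomal one was not tested.

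By role, the 40S genes were higher by 0.29 and 0.30 and the 60S genes by 0.29 and 0.31. The stalk genes were higher by 0.23 and 0.27. Among them Rplp0, the base of the stalk, gave 63.5, 75.8, 79.6 and 85.7 CPM, and Rplp2, its acidic partner, gave 154, 179, 157 and 200 CPM. The proteins that join 5S RNA in a particle able to bind Mdm2 were higher by 0.21 and 0.18, with Rpl5 at 108, 121, 133 and 142 CPM and Rpl11 at 127, 150, 182 and 215 CPM. The 9 genes taken here for Diamond-Blackfan anaemia, an inherited failure of red cell production, were all higher with the AAV-VEGF-C label, by 0.21 and 0.26 in sum. That count does not set them apart, since 78 and 80 of the 81 members were higher, against 48.3% and 50.6% of all genes.

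In cortex Rpl35, a 60S protein near the exit tunnel, had the widest difference at 0.58, from 33.8 CPM in the library labelled AAV-CTRL to 50.5 CPM in AAV-VEGF-C. Rps29 followed at 0.58, just under the fold, and Rps28, a short 40S protein, at 0.53, from 151 to 217 CPM. In striatum Rps21, a short 40S protein, had 0.60, from 221 to 333 CPM. Rpl39, a very short 60S protein that lines the tunnel, had 0.59, from 134 to 201 CPM, and Rpl37, a zinc-binding 60S protein, had 0.57, from 211 to 312 CPM. The lowest members in cortex were Rpl3l at -0.16 (-0.74 to 0.43), Rps27l at -0.06 and Rpl27 at -0.01. The lowest in striatum were Rpl3l at -0.14, Rpl7l1 at 0.05 and Rpl15 at 0.07. Rpl3l, the muscle paralogue of Rpl3, rested on 50, 54, 57 and 48 UMIs.

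The members' differences were related to coding length, more weakly in cortex than in striatum. The members were set in order of coding length after their values had been seen, and the 16 shortest (138 to 345 bases, from Rpl41 to Rplp2) and the 16 longest (729 to 1257 bases, from Rps3 to Rpl4) were summed. With the AAV-VEGF-C label the shortest were higher by 0.40 (0.389 to 0.406) in cortex and 0.49 (0.479 to 0.495) in striatum. The longest were higher by 0.23 (0.217 to 0.241) and 0.18 (0.169 to 0.190). The shortest exceeded the longest in 18 of 18 classes in cortex and 17 of 18 in striatum. Over 81 members the log2 ratio had a Spearman correlation with coding length of -0.34 in cortex and -0.79 in striatum. Over the other 14542 and 14949 genes it was -0.21 and -0.29, with a median ratio of 0.11 and 0.13 for other genes of at most 345 bases and of -0.01 and -0.02 for those of at least 729 bases. The median member had 0.36 and 0.51 among the shortest and 0.21 and 0.14 among the longest. Short genes outside the ribosome thus also lay above long ones, by a gap close to that of the members in cortex and narrower than it in striatum.

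**Figure D3:**
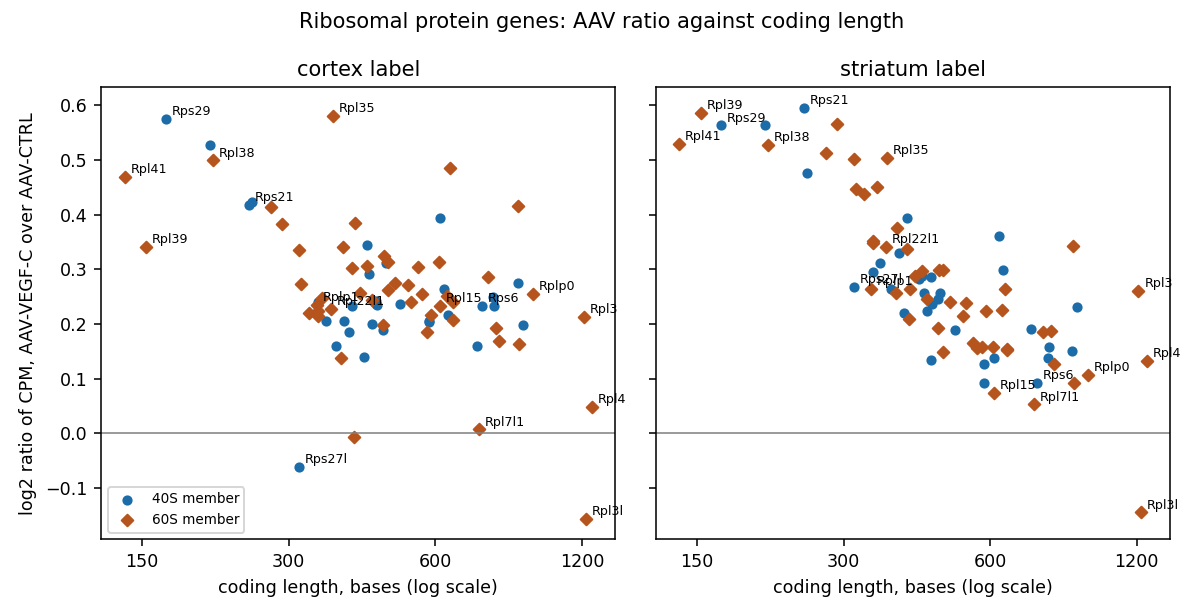
Log2 ratio of CPM, AAV-VEGF-C over AAV-CTRL (vertical axis), of each ribosomal protein gene against its coding length in bases (horizontal axis), for cortex and striatum labels. Short members lie higher than long ones, with a Spearman correlation of -0.34 and -0.79 over 81 members.

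The part of ribosomal UMIs held by the 16 shortest members set the libraries in 1 order. It was 29.4%, 31.7%, 24.8% and 28.2% over all nuclei, so that striatum AAV-CTRL was lowest and cortex AAV-VEGF-C highest. This order recurred in 16 of 18 classes, the exceptions being choroid plexus-like and red blood cell-like nuclei. Classes of 1 library lay close together, from 28.5% to 30.6%, 30.5% to 33.5%, 24.2% to 29.1% and 27.5% to 30.2%. The 29.1% was that of 32 red blood cell-like nuclei. The spread between classes of a library was thus smaller than that between libraries, unlike for the ribosomal share itself.

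**Figure D4:**
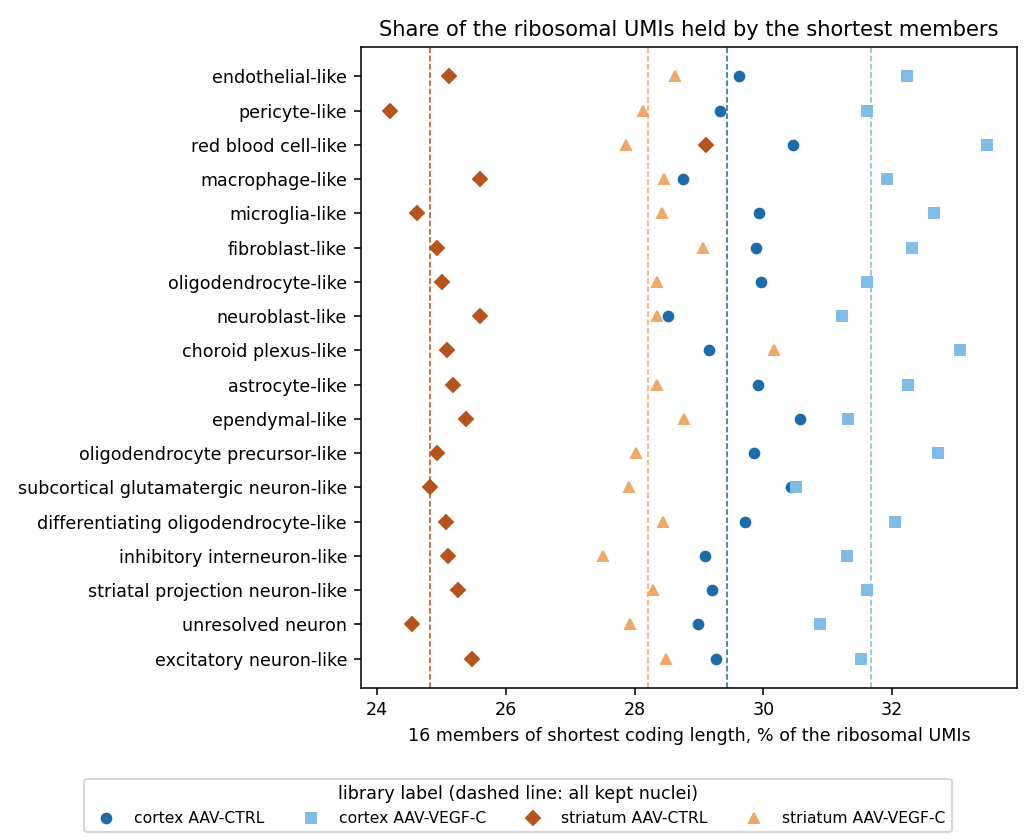
Percent of ribosomal UMIs held by the 16 members with the shortest coding sequence (horizontal axis) in each class (vertical axis) and library (points). Points of 1 library lie in a narrow band, and all nuclei gave 29.4%, 31.7%, 24.8% and 28.2% in the order of libraries.

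Between region labels the ribosomal share was higher in the libraries labelled striatum by 0.24 (0.236 to 0.245) within AAV-CTRL and 0.25 (0.248 to 0.256) within AAV-VEGF-C. The median of all genes was shifted by 0.18 and 0.19 in the same direction, and relative to that shift the difference was 0.06 in both. Of 81 members, 73 were higher within AAV-CTRL (68.8% of all genes) and 77 within AAV-VEGF-C (70.4%). By the fold, 2 were higher in each (18.1% and 18.5% of all genes) and 0 lower (8.33% and 8.3%). Within classes the median difference was 0.06 and 0.03, with 13 and 14 of 18 classes higher, so that the gap between whole libraries was larger than the median gap within classes. Astrocyte-, oligodendrocyte-, excitatory neuron- and inhibitory interneuron-like nuclei and unresolved neurons lay mainly in different clusters under the 2 region labels (clusters 2 and 6, 4 and 1, 5 and 22, 16 and 46, and 17 and 0, with the cortex label first), so that their values compare partly different nuclei. The other 13 classes had the same largest cluster in all 4 libraries.

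Single members differed more between region labels than the sum. Rps6, the 40S protein phosphorylated by S6 kinase, gave 76.8, 90.3, 125 and 133 CPM and was higher in striatum by 0.70 within AAV-CTRL. Rpl17, a protein at the tunnel exit, was higher by 0.59 and Rpl22l1 by 0.56 in that comparison. Within AAV-VEGF-C the highest were Rpl22l1 at 0.68, Rpl3 at 0.59 and Rps24 at 0.56. Rpl3, near the peptidyl transferase centre, gave 181, 210, 264 and 316 CPM. The lowest within AAV-CTRL were Rpl41 at -0.33, Rpl37 at -0.10 and Rps21 at -0.07, and within AAV-VEGF-C Rpl41 at -0.27, Rpl29 at -0.21 and Rps29 at -0.04. By length the shortest members differed by -0.00 and 0.08 and the longest by 0.39 and 0.34, and the longest exceeded the shortest in all 18 classes of both comparisons. Over the other genes the correlation with coding length was 0.03 and -0.02, against 0.58 and 0.29 over members.

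Among classes with at least 100 UMIs of a member, the 3 widest ranges between classes belonged to paralogues. Each member's share of ribosomal UMIs in a class was set against its share over all nuclei of the same library. Over 80 members the range between classes had a median of 0.39 on the log2 scale and ran from 0.13 to 1.09. Rps27l, a paralogue of Rps27 induced by p53, had the widest range, from 0.56 in ependymal-like to -0.54 in striatal projection neuron-like nuclei. The ependymal value rested on 130 UMIs and lay between 0.04 and 1.09 in single libraries. Rpl22l1, the paralogue of Rpl22, ranged from 0.24 in inhibitory interneuron-like to -0.60 in endothelial-like nuclei, where the 4 libraries lay between -0.65 and -0.59. Rpl7l1, a paralogue of Rpl7, ranged from 0.33 in oligodendrocyte precursor-like to -0.41 in endothelial-like nuclei. Rpl18, a 60S protein, ranged from 0.31 in ependymal-like to -0.36 in subcortical glutamatergic neuron-like nuclei, with 5 and 12 UMIs of the latter class in the libraries labelled cortex. Rps15a, a 40S protein, ranged from 0.42 in choroid plexus-like to -0.18 in pericyte-like nuclei. With classes of at least 50 UMIs the order changed, to Rps27l at 1.27, Rpl18 at 1.05, Rpl22l1 at 0.84 and Rpl7l1 at 0.73.

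Rpl22l1 gave 88.8, 104, 131 and 166 CPM, and Rpl22 gave 65.3, 71.8, 67.2 and 80.2 CPM, on different transcript lengths. Of the UMIs of this pair, Rpl22l1 held 57.6%, 59.2%, 66.2% and 67.5% over all nuclei. In endothelial-like nuclei it held 44.5%, 47.1%, 51.8% and 50.8%, and in astrocyte-like nuclei 61.3%, 66.2%, 71.6% and 73.9%. Endothelial-like nuclei were thus below all nuclei in each library, and the libraries labelled striatum were above those labelled cortex. Rps27l held 10.4%, 7.7%, 11.7% and 10.2% of the UMIs of Rps27l and Rps27, and 14.2%, 10.8%, 14.7% and 12% in endothelial-like nuclei. Rpl7l1 held 20.8%, 19.0%, 18.7% and 17.9% of its pair with Rpl7 over all nuclei, 12.6%, 13.6%, 12.5% and 14.4% in endothelial-like nuclei and 26.1%, 24.2%, 23.6% and 22.4% in unresolved neurons. Rpl3l held at most 0.5% of its pair with Rpl3, and Rpl39l held 0.1% of its pair with Rpl39 in each library. Many processed copies of ribosomal protein genes lie in the genome, and reads that fit more than 1 copy may have been lost or split, for example between Rps27 and Rps27rt or Rpl36a and Rpl36al, so that levels of these genes are uncertain.

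**Figure D5:**
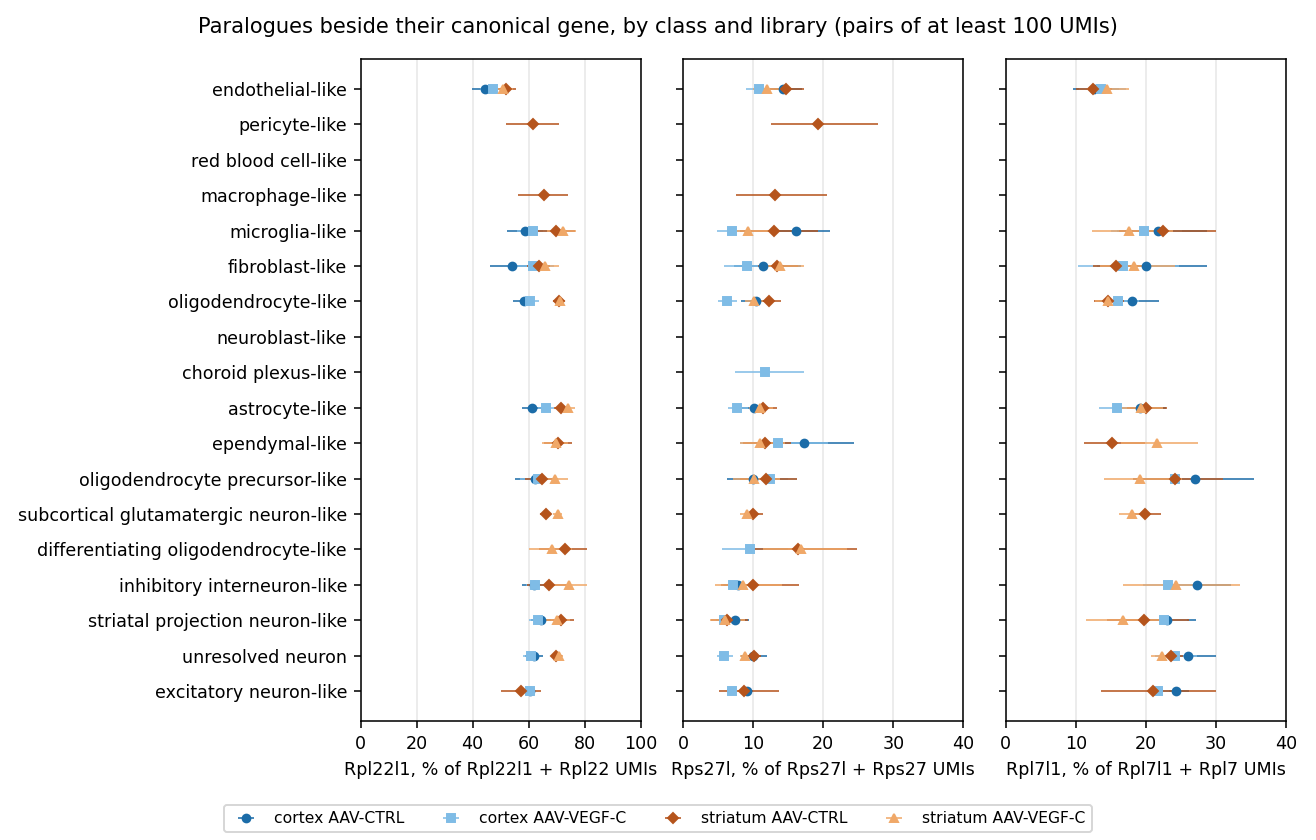
Percent of the UMIs of a paralogue pair that fell on the paralogue (horizontal axis) by class (vertical axis) and library (points). Rpl22l1 held 57.6% to 67.5% of its pair over all nuclei and 44.5% to 51.8% in endothelial-like nuclei.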

How the data were processed

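Nuclei of 4 pooled tissue samples were profiled with 10x Genomics 3′ chemistry. The deposited values are UMI counts per gene and nucleus, which the authors made with Cell Ranger (5.0.1 in the file headers, 5.1.1 in the submitters' processing notes) on mm10, with no normalization. Whether intronic reads were counted is not given in the sources used here. Per the study's methods, the authors discarded nuclei under 200 UMIs. They then removed clusters that averaged under 1000 counts, taken as debris, doublets and dead cells. This left 78728 nuclei, the number deposited, so that the counts used here had already passed a filter on depth.

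Each library was read as a sparse matrix. Scrublet, as implemented in Scanpy 1.11.5 and set to expect 8% doublets, marked 4.44%, 5.99%, 7.65% and 4.09% of nuclei. Without ribosomal protein and mitochondrially encoded genes, counts were scaled to 10000, and 5000 variable genes, 50 principal components and 15 neighbours were used for Leiden clustering (leidenalg 0.10.2) at a resolution of 1.2. Of 77 clusters, 16 with at least 40% doublets were left out and 7 stayed unnamed. A name needed at least 3 markers and 35% of the class's markers, each with a log2 fold of at least 1 and a UMI in at least 10% of nuclei. The naming rule was revised after clusters had been seen.

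UMIs were summed per library and class. Shares have exact binomial (Clopper-Pearson) and ratios exact conditional binomial 95% intervals (SciPy 1.17.1), which cover counting error only. Genes needed 100 UMIs over both sides of a ratio, and a log2 ratio of 0.58 was the fold counted. CPM is UMIs per 1000000 of the sum. The scripts were tested on simulated data. Named genes were the 5 members with the most UMIs, paralogues and their partners, the 3 highest and 3 lowest in each library comparison, the 5 with the widest range over classes, stalk, 5S particle and Diamond-Blackfan genes, members under 100 UMIs and chosen genes of other families, of which some are not reported here. The members and lists were chosen with earlier results of these data known. Coordinates are from GENCODE vM21 (GRCm38) and promoters from RefSeq (GRCm38.p6). Alternatives varied the members, the denominator, the depth, the doublet filter, the class calls and the count minimum.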

Additional observations from a re-analysis of the deposited data

Results flagged for a closer look

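Subcortical glutamatergic neuron-like nuclei had summed ribosomal shares that lay on opposite sides of 0 under the same contrast. The log2 ratio of the ribosomal share, AAV-VEGF-C over AAV-CTRL, was -0.43 in the libraries labelled cortex and 0.28 in those labelled striatum, and the difference between them was not tested. The cortex value rested on 54 and 66 nuclei, the striatum value on 3596 and 3190. The cluster of low UMI count held 88.9% and 57.6% of these nuclei in cortex and 57.8% and 57.9% in striatum. Within that cluster alone the share was higher with the AAV-VEGF-C label under both region labels, from 1.97% to 2.82% in cortex (48 and 38 nuclei) and from 2.55% to 3.24% in striatum (2080 and 1846 nuclei). As the mean over all nuclei of the class the cortex value was 0.10, and it was -0.15 in thinned nuclei and -0.13 as the median over nuclei, so that the opposite sign did not hold under the mean.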

How the results depend on the processing

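No paired analysis was possible because each group is 1 library, the virus groups share no mice and no result comes from a test; for the same reason no library could be left out of a group. The region labels pair within the 2 pools, whose differences stand side by side in the text, untested. The AAV-VEGF-C over AAV-CTRL difference of the ribosomal share kept its direction under every alternative run on whole libraries. In cortex it was 0.27 without the 5 members with the most UMIs, 0.30 with median-of-ratios size factors, 0.28 with all barcodes, and 0.29 both in thinned nuclei and as the mean over nuclei. In striatum it was 0.28 without those 5 members, 0.31 without the 10 most counted genes in the denominator, 0.32 with all barcodes, 0.36 in thinned nuclei, 0.30 as the median over nuclei and 0.28 with classes weighted equally. After seeing the data, the 9 clusters whose nuclei held under 0.6 of their libraries' typical UMI count and the 7 unnamed clusters were left out. This gave 0.36 in cortex and 0.28 in striatum. It removed the endothelial-, microglia-, ependymal-, macrophage-, pericyte- and red blood cell-like classes entirely. In the libraries labelled cortex it also removed 94.9% and 96.2% of oligodendrocyte-like nuclei. Leaving out only the 2 neuron clusters among the 9, together with the unnamed ones, was added later still and gave 0.33 and 0.27.

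The region difference depended on the scaling. Within AAV-CTRL it was 0.28 without the 5 members, 0.20 without the 10 genes, 0.056 with median-of-ratios size factors, 0.22 with all barcodes, 0.17 in thinned nuclei, 0.21 as the mean and 0.28 as the median over nuclei, and 0.059 within classes. Within AAV-VEGF-C the values were 0.29, 0.22, 0.059, 0.26, 0.24, 0.23, 0.29 and 0.032 in the same order, and 0.25 without paralogues. With median-of-ratios size factors 31 and 26 members were lower and 0 were higher by the fold. On the main scaling 8 and 4 had been lower and 2 and 2 higher by the fold. Median-of-ratios scaling removes the shift of all genes. Under it 38.3% and 32.1% of members were lower, against 50% of all genes in both. Higher by the fold under it were 12.1% of all genes in both comparisons, against 0 members. With all barcodes 1 member was higher by the fold within AAV-CTRL, a setting for which the share over all genes was not counted.

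For AAV, median-of-ratios size factors gave 2 members higher by the fold in cortex, where 0.441% of all genes were. A minimum of 500 UMIs gave 0 members lower in striatum, and the share over all genes was not counted for that minimum. At their own depth nuclei had 26.7, 31.6, 27.8 and 36.1 members with a UMI. Calling classes nucleus by nucleus, which gave the same class for 61.5% of nuclei, turned neuroblast-like nuclei against all others to -0.50 and -0.48 in the libraries labelled cortex, and the median range over classes to 0.33. The cause was not tested. The widest range was 1.27 with classes of at least 50 UMIs, and 29 promoters had the run within 5 bases of the start. With 27 members at each end, chosen after seeing the data, the shortest minus the longest gave 0.12, 0.24, -0.31 and -0.19 for cortex and striatum AAV and for the regions within AAV-CTRL and AAV-VEGF-C, and without Rps29 and Rpl41 the last was -0.19. Among alternatives by class, 4 of 360 AAV ratios and 33 of 360 region ratios changed sign, as did 40 of 720 ratios of a class to the rest, 2 of them past the fold, with 13 of 72 under the mean over nuclei and 9 of 72 in thinned nuclei.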
